A study of Mus musculus with 4 samples.

Results

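The 31 imprinted genes described here were chosen by name, and their sites were all accessible regions overlapping the gene body or lying within 10 kb upstream of the transcription start site (TSS). By this rule 30 of the 31 genes held at least 1 site, and 115 of the 82325 sites belonged to them. Of these 115 sites, 13 lay in 2 of the genes at once, since genes such as Peg3 and Usp29 or Igf2r and Airn overlap or start next to each other. Mirg, a maternally expressed noncoding RNA, was the gene without a site. The nearest one began 0.199 kb past its end and held 198 and 229 normalized counts in the HAT1+/+ (WT) libraries against 237 and 206 in the HAT1-/- (KO) libraries. The genes fell into 16 loci, of which 7 held several of them.

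The cells were mouse embryonic fibroblasts (MEFs) on a C57bl6 background, immortalized with the SV40 large T antigen and cultured in DMEM with serum. HAT1+/+ lines (WT) were compared with HAT1-/- lines (KO), with 2 lines and 1 ATAC-Seq library per line in each genotype, and no further treatment. HAT1 is the enzyme that acetylates newly synthesized histone H4. ATAC-Seq counts the cuts that the Tn5 transposase makes in open chromatin, so that a count follows how accessible a region is, and also how many copies of it the cells carry. All 4 lines carried the large T antigen, and each library came from 1 line. Values are the normalized counts per site, with replicate 1 given before replicate 2 throughout. The replicate numbers are names only. The line names of WT replicate 1 and KO replicate 2 share a number, and the labels do not say whether it marks a shared origin.

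An imprinted locus is usually governed by a control region whose DNA is methylated on 1 parental copy. The unmethylated copy is bound by factors such as CTCF at H19 and YY1 at Peg3, whereas ZFP57 binds the methylated copy and protects its methylation. Neighbouring genes can be expressed from opposite parental copies, as the paternally expressed Peg3 and the maternally expressed Zim1 are. All lines were of 1 strain and the values are not split by allele, so the parental copies cannot be told apart in these data.

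Stretches of accessible sites are shown for Peg3, where the KO lines diverged, and for H19, Kcnq1ot1 and Plagl1, where control-region sequence lay in sites whose genotypes overlapped. Each stretch is 300 bases of the reference mm10 (GRCm38.p6), read on the plus strand inside an accessible site and chosen as the stretch with the most motif matches that holds no annotated UTR. Capitals mark exact matches, on either strand, to the CTCF motif of the H19 control region (CCGCG, any base, GG, any base, then GGCAG), to TGCCGC (ZFP57) or GCCATNTT (YY1). The Peg3 stretch, chr7:6728231-6728530, lies inside the gene near its start and holds 3 YY1 matches and 1 ZFP57 match. The H19 stretch, chr7:142580169-142580468, lies upstream of H19 and holds 1 CTCF match and 2 ZFP57 matches, one of which overlaps the CTCF match. The Kcnq1ot1 stretch, chr7:143295621-143295920, holds 3 ZFP57 matches, and the Plagl1 stretch, chr10:13090450-13090749, holds 2.
Peg3: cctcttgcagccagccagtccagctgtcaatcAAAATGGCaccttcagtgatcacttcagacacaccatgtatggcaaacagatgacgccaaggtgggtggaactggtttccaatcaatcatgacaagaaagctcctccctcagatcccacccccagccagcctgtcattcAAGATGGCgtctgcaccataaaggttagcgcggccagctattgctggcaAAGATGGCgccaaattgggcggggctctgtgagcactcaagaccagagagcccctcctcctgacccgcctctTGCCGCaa
H19: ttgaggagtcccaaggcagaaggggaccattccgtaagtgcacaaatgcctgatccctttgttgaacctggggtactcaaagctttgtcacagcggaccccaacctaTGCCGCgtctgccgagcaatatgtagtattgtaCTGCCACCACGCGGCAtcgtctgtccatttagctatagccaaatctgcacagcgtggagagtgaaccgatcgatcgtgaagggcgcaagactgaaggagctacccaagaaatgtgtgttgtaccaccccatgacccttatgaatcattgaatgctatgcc
Kcnq1ot1: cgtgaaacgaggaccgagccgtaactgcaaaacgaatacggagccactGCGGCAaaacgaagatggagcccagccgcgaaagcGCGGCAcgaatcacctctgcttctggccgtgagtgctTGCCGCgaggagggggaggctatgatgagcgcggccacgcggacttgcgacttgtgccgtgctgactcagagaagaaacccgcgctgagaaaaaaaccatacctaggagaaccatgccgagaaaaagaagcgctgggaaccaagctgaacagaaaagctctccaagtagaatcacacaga
Plagl1: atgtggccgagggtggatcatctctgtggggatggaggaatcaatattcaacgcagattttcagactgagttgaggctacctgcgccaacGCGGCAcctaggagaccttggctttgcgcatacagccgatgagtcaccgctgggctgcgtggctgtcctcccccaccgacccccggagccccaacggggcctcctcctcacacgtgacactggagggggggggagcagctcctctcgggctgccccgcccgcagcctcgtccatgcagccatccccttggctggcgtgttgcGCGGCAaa

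A match is a description of letters and not evidence of binding. The whole Peg3 site of 1586 bp held 8 YY1 matches, and the 381 bp site beside it held 2 more. The H19 site was the one imprinted site with CTCF matches, of which it held 2. To compare with other regions, the central 300 bases of every site were searched. ZFP57 letters were present in 14.78% of the imprinted sites and 7.891% of all sites, YY1 letters in 7.826% and 5.17%, and the CTCF motif in 0 of 115 and in 0.01093% of all sites. Imprinted sites were also more often promoter sites, here within 3 kb of a TSS (66 of 115 or 57.4%, against 35.4% of all sites). Among promoter sites alone, ZFP57 letters were present in 21.21% of the imprinted sites and 15.89% of all. The median CpG content was 2 per 100 bases in imprinted sites and 1.333 in all sites. The median site length of 458 bp was close to the 440 bp of all sites, and so was the median value, which was 53 against 52.

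The targeted gene gave no check of the genotypes, since the Hat1 promoter site held 390 and 384 in the WT and 438 and 368 in the KO libraries. Depth differed between the libraries. The number of reads in sites, estimated from the steps in the low values, was 9.42e+06 and 1.14e+07 in the WT libraries and 7.83e+06 and 5.65e+06 in the KO libraries, so that counting error was larger in the KO libraries. All 12 fibroblast marker genes examined (such as Col1a1, Pdgfra and Twist1) had an accessible promoter site in the table, and 8 to 10 of them were at or above the median promoter value in each library. None of the 5 blood, 2 muscle and 2 pluripotency markers had a promoter site. Promoter sites were listed for 3 of 3 endothelial, 3 of 4 epithelial and 4 of 4 neural markers. Their summed values were 110 to 194, 112 to 196 and 270 to 324 per library, against 3264 to 3843 for the fibroblast markers. These sums run over unequal numbers of sites. In each library 0 or 1 endothelial, 0 or 1 epithelial and 1 or 2 neural markers were at or above the median promoter value.

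The first question was whether accessibility at imprinted genes differed between HAT1-/- and HAT1+/+ lines. A site was called when limma gave it p below 0.01 before adjustment and the log2 change was 1 or more in size. By this rule 0 of the 115 imprinted sites were called, whereas 0.373% of all 82325 sites were, 0.302% as lower and 0.0705% as higher in KO, and no site of the table passed an adjusted p under 0.05. The limma adjusted p was 1 at every imprinted site. An unadjusted p under 0.05 was given to 3 of the 115 imprinted sites (2.61%), against 3.13% of all sites. In these bulk libraries, a lower value in some cells or on 1 parental copy cannot be told apart from a lower value in every cell. The 3 sites were a site of Ndn and a site of Usp29, both lower in KO, and a site upstream of Nnat, which was higher.

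The imprinted sites were on balance slightly lower in KO. The log2 difference (KO minus WT, on the log2(value + 1) scale) was below 0 at 68 of 115 sites (59.1%), against 49.3% of all sites. Its median was -0.11, or -0.06 without the 10 sites of the Peg3 locus, and it was 0.0062 over all sites. Without KO replicate 1 the median turned to 0.056, so its sign rested on that library. Both KO values lay below both WT values at 19 of the 115 sites (16.5%, against 14.3% of all sites). Both lay above at 9 (7.83%, against 14.6%). The median size of the difference between the KO lines was 0.46 on the log2 scale, larger than the 0.32 between the WT lines, as over all sites (0.43 and 0.34).

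Summed over the sites of a gene, the result was similar. Of the 30 genes, 0 were called (0.334% of 29025 genes with a site) and 2, Ndn and Nnat, had an unadjusted p under 0.05 by limma (3.68% of all genes). No gene of the table had an adjusted p under 0.05. Both KO sums lay on one side of both WT sums for 7 genes, where 33.0% of all genes did so. Igf2 and Ndn lay below, and Peg10, Sgce, Gnas, Nnat and Slc38a4 lay above. The limma adjusted p of the 30 genes was 0.966 or higher. Genes were also split by parent of expression, which was assigned by gene name and not measured in these cells. The log2 difference was below 0 for 10 of 12 maternally expressed genes and 7 of 17 paternally expressed genes, beside 43.4% of all genes. The medians were -0.07 for the maternal and 0.03 for the paternal genes. Without KO replicate 1 these counts were 5 of 12 and 6 of 17, so the maternal count rested on that library. Gnas, whose promoters differ in parental origin, was counted in neither. These genes share loci and sites, and the split was not tested.

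**Figure D1:**
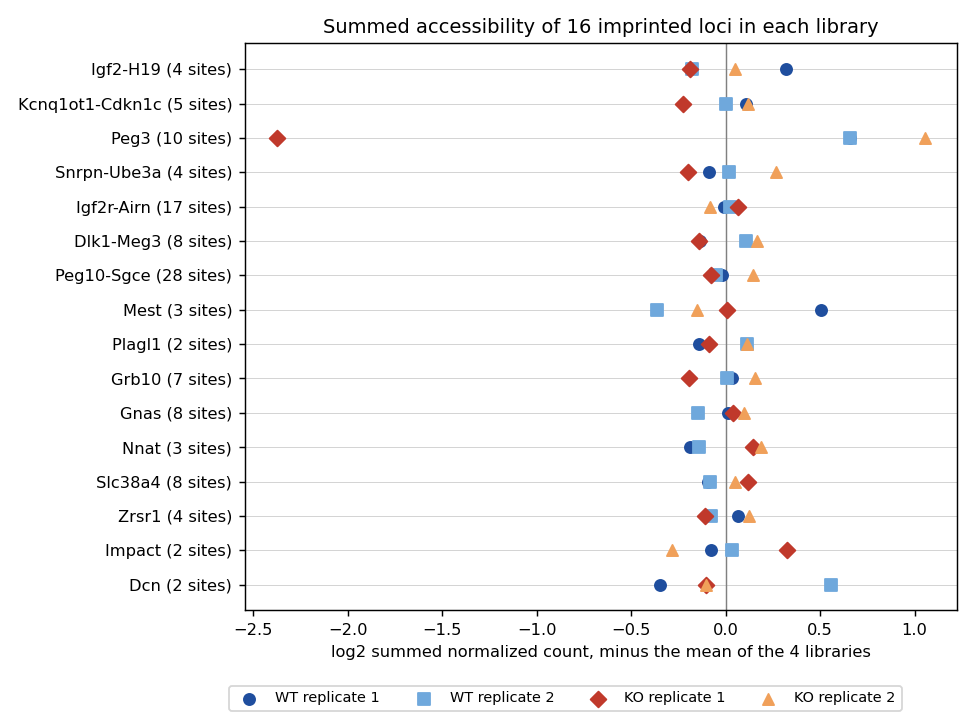
Summed normalized counts of 16 imprinted loci, as log2 of the library's sum minus the mean of the 4 libraries (x axis, log2 units), with 1 symbol per library and the number of sites after each name. The Peg3 locus stands apart through KO replicate 1, at -2.37, whereas every other locus lies between -0.36 and 0.56 in every library.

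The widest departure of any locus was at Peg3, and it came mainly from 1 KO line. Peg3 encodes a zinc-finger protein, Usp29 a ubiquitin-specific peptidase and Zim1 another zinc-finger protein. Their 10 sites spanned chr7:6688711-6941088, or 252 kb, with no other site between them. The summed value was 760 and 759 in the WT libraries, and 92 and 1000 in the KO libraries. The WT lines were therefore nearly equal, one KO line was far below them and the other above them. The log2 difference between the KO lines was 3.43, and between the WT lines -0.0019. The mean difference between genotypes of -1.32 thus averaged opposite directions, and the groups overlapped.

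The strongest site, chr7:6727446-6729031, lay 1388 bp inside the Peg3 gene from its TSS and is the source of the YY1-rich stretch printed above. It held 342 and 358 in the WT libraries and 34 and 534 in the KO libraries, for a log2 difference of -1.36 (SE 1.13). The neighbouring site, 667 bp from the TSS, held 102 and 85 against 15 and 132. The site over the start of Peg3 and beside that of Usp29 held 59 and 58 against 11 and 65. In all 3 sites KO replicate 1 was far below the other libraries, and KO replicate 2 was above both WT libraries. The promoter of Zim1, which is expressed from the other parental copy, likewise had KO replicate 1 as the lowest and KO replicate 2 as the highest library, with 64 and 81 against 4 and 95 (log2 difference -1.74, SE 1.26). A second site near an alternative start of Zim1 held 18 and 16 against 4 and 30.

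The 5 intronic sites of Usp29 continued the pattern over the rest of the locus. The one nearest the promoter held 21 and 24 against 2 and 35, and the one with the highest values 69 and 61 against 10 and 60. Toward the end of the gene, KO replicate 2 was also lower. A site at chr7:6937163-6937417 held 26 and 20 in the WT libraries and 4 and 8 in the KO libraries, a log2 difference of -1.83 (SE 0.73). It was the Peg3 locus site with the smallest p. At 4 of the 10 sites, all in Usp29, both KO values lay below both WT values, as at 14.3% of all sites. These 4 were neighbouring sites, and at 1 of them KO replicate 2 held 60 against a lowest WT value of 61. Across all 10 sites KO replicate 1 was at 0.05 to 0.222 times the mean of the other 3 libraries, with a median of 0.149. KO replicate 2 was at 0.348 to 1.76 times the WT mean, with a median of 1.21.

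**Figure D2:**
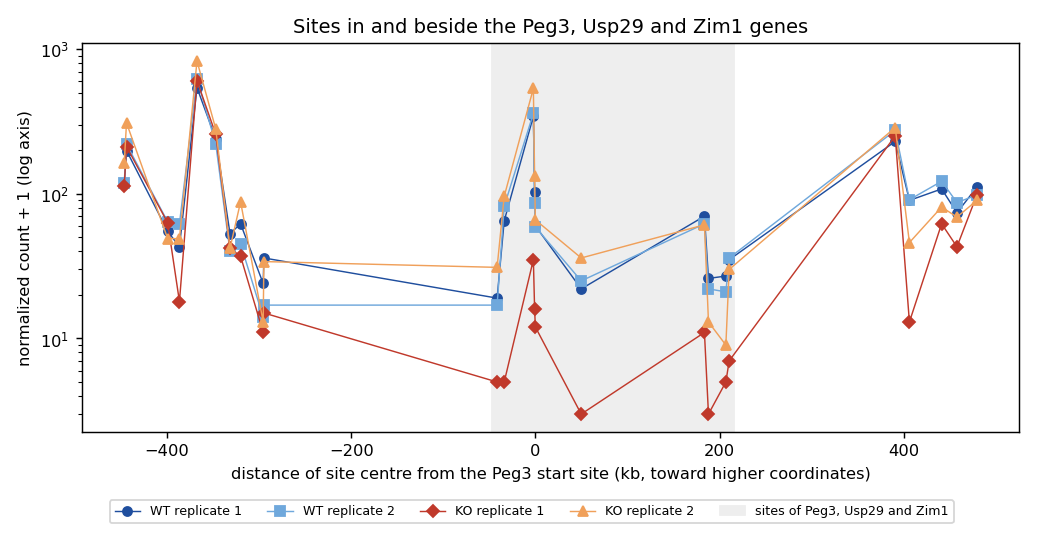
Normalized count plus 1 (y axis, log scale) of the sites in and beside Peg3, Usp29 and Zim1, against the distance of the site centre from the Peg3 start site (x axis, kb), with 1 line per library and the 10 sites of the locus shaded. KO replicate 1 drops below the other 3 libraries at all 10 shaded sites and is at a median of 0.863 and 0.594 times their mean over the flanking sites on either side.

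The low values of KO replicate 1 were weaker in the flanks. Lower accessibility and fewer DNA copies of a region in that line cannot be told apart in these values, here or in the runs of sites described next. The nearest site on the Zim1 side was 253 kb away, and the nearest on the Usp29 side 180 kb away. The 10 flanking sites on the Zim1 side included promoters of zinc-finger genes such as Zfp28 and Zfp667. Over these 10 the sums were 1360 and 1414 in the WT and 1363 and 1844 in the KO libraries. KO replicate 1 was there at a median of 0.863 times the mean of the others. Over the 5 sites on the Usp29 side the sums were 608 and 667 against 462 and 568, and the median ratio was 0.594. These 5 were uneven, since the site at Zfp954 held 229 and 273 against 250 and 286, whereas that at Zfp773 held 89 and 90 against 12 and 45. The median departure of all chromosome 7 sites from the mean of the 4 libraries was -0.07 on the log2 scale in KO replicate 1, whereas in KO replicate 2 it was 0.12.

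A stretch of this kind was common in KO replicate 1 and rare in the WT libraries. KO replicate 1 was at or below 0.5 times the lowest of the other 3 libraries at 4.89% of all sites, against 2.75% for KO replicate 2 and 1.03% and 1.39% for the WT libraries. Such sites followed each other in runs of at least 10 in 26 places in KO replicate 1, in 4 in KO replicate 2 and in 0 in either WT library. The Peg3 run of 10 sites ranked 21 by length among the runs of KO replicate 1, the longest of which held 22 sites at chr10:123875648-125785204. Among imprinted sites, 15 of 115 (13.04%) met this criterion in KO replicate 1, and 10 of them were those of the Peg3 locus. Elsewhere 5 of 105 did (4.76%), a share near that of all sites. The 5 lay in Ndn, Grb10, Dcn and, as 2 sites, Ppp1r9a. KO replicate 2 met it at 2 sites, both at the start of Slc38a4, and the WT libraries at 0.

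With KO replicate 2 left out, 7 imprinted sites (of 115, against 0.743% of all sites in the same comparison) and 4 of 30 genes (against 1.11% of all genes) were called. They were 6 sites of Peg3, Usp29 and Zim1, 1 of Ndn, and the 4 genes of that name. This fit compares 1 KO library with 2 WT libraries and assumes that the lone library varies like the others. With KO replicate 1 left out, 0 were called, and the Peg3, Usp29 and Zim1 sums were higher in the KO library, by 0.54, 0.38 and 0.48 on the log2 scale.

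**Figure D3:**
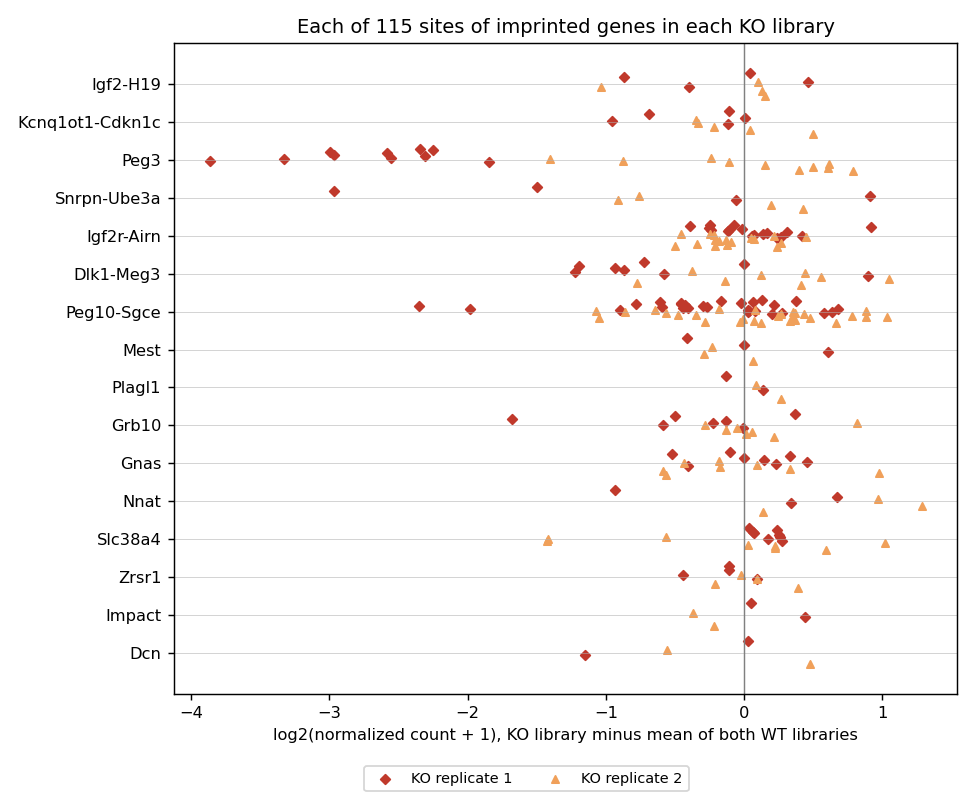
Log2(normalized count + 1) of each KO library minus the mean of both WT libraries (x axis) at each of the 115 imprinted sites, grouped by locus (y axis). The 10 Peg3 sites of KO replicate 1 lie between -3.87 and -1.85, and those of KO replicate 2 lie on both sides of 0.

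The Snrpn-Ube3a locus, also on chromosome 7, held the other marked difference. Its members are Snrpn, which encodes a splicing protein, Ndn and Magel2, which encode related MAGE family proteins, and Ube3a, a ubiquitin ligase. Ndn, a single-exon gene, had 1 site at chr7:62348151-62348884, with 48 and 44 in the WT and 5 and 24 in the KO libraries. Both KO libraries were below both WT libraries, although they differed from each other by a wide margin. The log2 difference was -1.94 (SE 0.73), and of the 115 sites this one had the smallest unadjusted p. The nearby Magel2 promoter held 42 and 14 against 8 and 14, which overlapped (log2 difference -1.13, SE 0.72).

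Snrpn and Ube3a, at the other end of the locus, did not follow. The site upstream of Snrpn held 27 and 16 against 40 and 24, where KO replicate 1 was the highest library. The Ube3a promoter was the most accessible promoter of the 30 genes, with 470 and 559 against 492 and 690 (log2 difference 0.18, SE 0.18). The summed value of the locus, dominated by Ube3a, was 587 and 633 against 545 and 752. Its difference of 0.07 therefore says little of Ndn.

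The low values of KO replicate 1 at Ndn reached well beyond the gene. Over the 13 sites between Snrpn and Ndn, the sums were 564 and 473 in the WT libraries and 169 and 509 in the KO libraries, with KO replicate 1 at a median of 0.353 times the mean of the other libraries. Over the 6 sites beyond Magel2 the sums were 198 and 279 against 164 and 352, with a median ratio of 0.438. Those 6 include the promoters of Mkrn3 and Peg12, which are imprinted genes outside the 31. Peg12 held 81 and 88 against 40 and 146, and Mkrn3 held 13 and 16 against 10 and 38. As at Peg3, one KO library was the lowest and the other the highest at both.

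**Figure D4:**
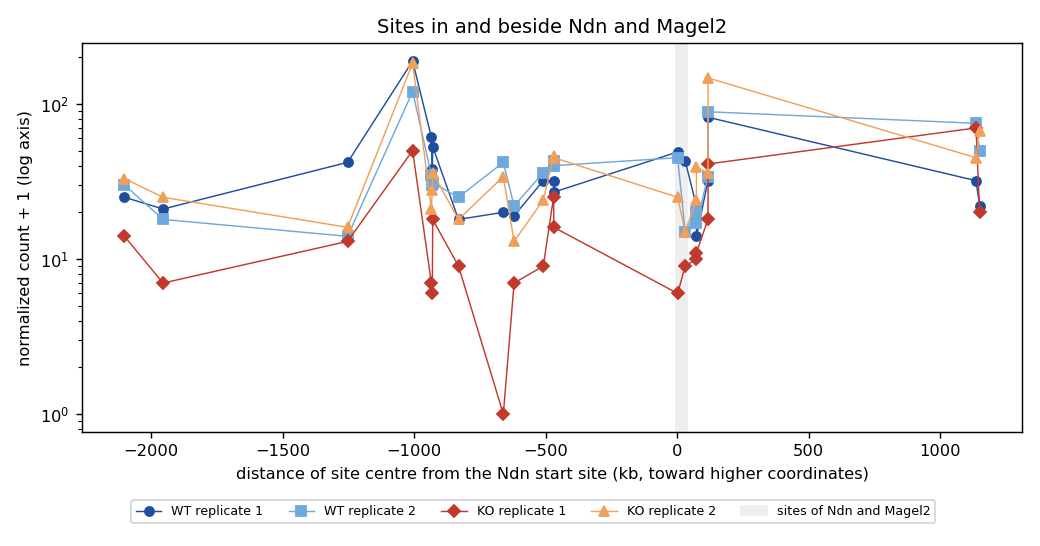
Normalized count plus 1 (y axis, log scale) of the sites in and beside Ndn and Magel2, against the distance of the site centre from the Ndn start site (x axis, kb), with 1 line per library and the sites of Ndn and Magel2 shaded. KO replicate 1 is the lowest library at Ndn and at all 13 sites between Snrpn and Ndn, at a median of 0.353 times the others.

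The other loci of chromosome 7 showed smaller and overlapping differences. Igf2 encodes a growth factor and H19 a noncoding RNA expressed from the opposite parental copy. The H19 site that covers the printed CTCF match, 2026 bp upstream of the TSS, held 108 and 86 in the WT and 73 and 107 in the KO libraries (log2 difference -0.12, SE 0.32). A second site, 3507 bp upstream, held 31 and 18 against 33 and 26. Neither differed beyond the spread between lines. The Igf2 promoter site held 44 and 23 against 17 and 15, so that both KO values were below both WT values, with a log2 difference of -0.95 (SE 0.51). The difference did not pass the test.

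In the neighbouring Kcnq1ot1-Cdkn1c locus, Kcnq1ot1 is a paternally expressed noncoding RNA, Cdkn1c an inhibitor of cyclin-dependent kinases and Phlda2 a regulator of placental growth. The Kcnq1ot1 promoter, from which the stretch with 3 ZFP57 matches was taken, held 170 and 241 against 187 and 286. The Cdkn1c promoter held 125 and 68 against 47 and 95, and that of Phlda2 165 and 140 against 141 and 119. At Phlda2 the highest KO value lay 1 above the lowest WT value, and the summed values of the locus, 577 and 536 against 458 and 583, overlapped.

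Among growth regulators, the Igf2r-Airn locus differed little between the libraries. Igf2r encodes the receptor that clears IGF2, and Airn is the noncoding RNA that runs through it from the paternal copy. Their 17 sites summed to 1492 and 1525 in the WT and 1571 and 1415 in the KO libraries, a log2 difference of -0.02. The Airn promoter site held 161 and 130 against 159 and 174. The Igf2r promoter site with the highest values, at an internal start of the gene, held 118 and 84 against 112 and 93. The site at the beginning of Igf2r held 113 and 86 against 91 and 90. Grb10, an adaptor that dampens insulin signalling, held 487 and 478 against 415 and 530 over 7 sites. Its strongest site held 214 and 232 against 222 and 259, and a site at 150 bp from one of its starts held 48 and 29 against 11 and 36. Plagl1, a zinc-finger transcription factor, held 130 and 147 against 126 and 147 at its promoter, the source of the printed stretch.

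At Dlk1-Meg3, the paternally expressed Dlk1 encodes a transmembrane Notch-family protein, and Meg3, Rian and Mirg are maternally expressed noncoding RNAs. The Dlk1 promoter held 37 and 33 against 23 and 20, below the WT range in both KO lines (log2 difference -0.68, SE 0.41). The site 7349 bp upstream of Dlk1 went the other way, with 93 and 51 against 129 and 92, so the gene's sum was 130 and 84 against 152 and 112. The Meg3 promoter held 31 and 48 against 16 and 35, and the strongest site of Rian 85 and 137 against 108 and 147. All of these but the Dlk1 promoter overlapped between genotypes.

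The Peg10-Sgce locus on chromosome 6 had the most sites, 28, and its paternally expressed pair leaned upward. Peg10 derives from a retrotransposon, and Sgce encodes a sarcoglycan. Both share 4 sites, the strongest of which, chr6:4740324-4740966, lay at an internal start of Sgce and upstream of Peg10. It held 143 and 129 in the WT and 212 and 171 in the KO libraries (log2 difference 0.48, SE 0.23). The site over the start of Peg10 held 42 and 38 against 41 and 42 (0.05, SE 0.35). Summed over its 4 sites Peg10 held 364 and 339 against 434 and 437 (log2 difference 0.31, SE 0.13), and Sgce over 8 sites 579 and 547 against 692 and 658 (0.26, SE 0.12). The groups did not overlap for either gene, the 4 sites of Peg10 are also among those of Sgce, and neither passed the test. Another Peg10 site held 88 and 101 against 96 and 120.

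The maternally expressed genes of that locus, Ppp1r9a, which encodes an actin-binding scaffold, and Asb4, a SOCS box protein, differed from that pair. Ppp1r9a summed to 777 and 771 against 596 and 926 over 14 sites, again with KO replicate 1 below and KO replicate 2 above both WT lines. Its promoter site with the highest values, at an internal start of the gene, held 105 and 93 against 115 and 119, without overlap. The promoter site nearer the beginning of the gene, at chr6:4903511-4903849, held 41 and 32 against 19 and 36, which overlapped. Asb4 held 69 and 82 against 74 and 41 at its promoter and 290 and 293 against 292 and 259 in all.

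Nnat, Slc38a4 and Gnas were the loci whose summed values were higher in both KO libraries, 3 of 16. For comparison, both KO sums lay above both WT sums for 5803 of all 29025 genes with a site. Nnat, a small membrane protein gene inside an intron of Blcap, held 313 and 324 in the WT and 395 and 407 in the KO libraries. Its log2 difference of 0.33 (SE 0.14, adjusted p = 0.966 by limma over all genes) exceeded the differences within either genotype, which were 0.05 and 0.04. The higher values lay upstream. The site at chr2:157556123-157556376, 3702 bp from the TSS, held 31 and 24 against 44 and 68 (0.98, SE 0.40), and the strongest one, 6801 bp away, held 259 and 279 against 340 and 295. The promoter itself held 23 and 21 against 11 and 44, and on the gene body alone the difference was 0.016.

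Slc38a4, which encodes an amino acid transporter, summed to 707 and 712 against 819 and 780 over 8 sites, a log2 difference of 0.17 (SE 0.11). At 3 of its 4 intronic sites both KO values were above both WT values, for example with 123 and 154 against 167 and 208. This was so at 0 of its 4 promoter sites, and the one with the highest values held 54 and 46 against 59 and 18. All sites of chromosome 15 were raised in KO replicate 1 by a median of 0.16 from the mean of the 4 libraries, and the part of that in the result was not tested. Gnas, a complex locus for a G protein subunit, summed to 727 and 651 against 742 and 772 over 8 sites (0.14, SE 0.12). This was smaller in size than the difference between the WT lines (-0.16). The log2 difference was below 0 at 5 of the 8 sites, with a median of -0.08, whereas the strongest site held 140 and 154 against 162 and 185.

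The summed values of the remaining single genes overlapped between genotypes. Mest, a hydrolase gene, held 102 and 48 against 70 and 57 at its promoter site with the highest values, where both KO values lay between the WT values. The site over a TSS of Mest held 91 and 55 against 53 and 60, with KO replicate 1 the lowest. Zrsr1, a splicing factor gene, held 102 and 71 against 79 and 84 at its promoter site with the highest values. The site over its TSS held 98 and 83 against 66 and 78, with both KO values below both WT values, as at 14.3% of all sites. Impact, a regulator of translation, held 144 and 149 against 152 and 113 at its promoter and 502 and 541 against 662 and 435 in all. Dcn, which encodes the matrix proteoglycan decorin, held 18 and 25 against 9 and 30 at its promoter. Their log2 differences in summed values ran from -0.21 at Dcn to 0.04 at Impact, each within the spread of its lines.

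**Figure D5:**
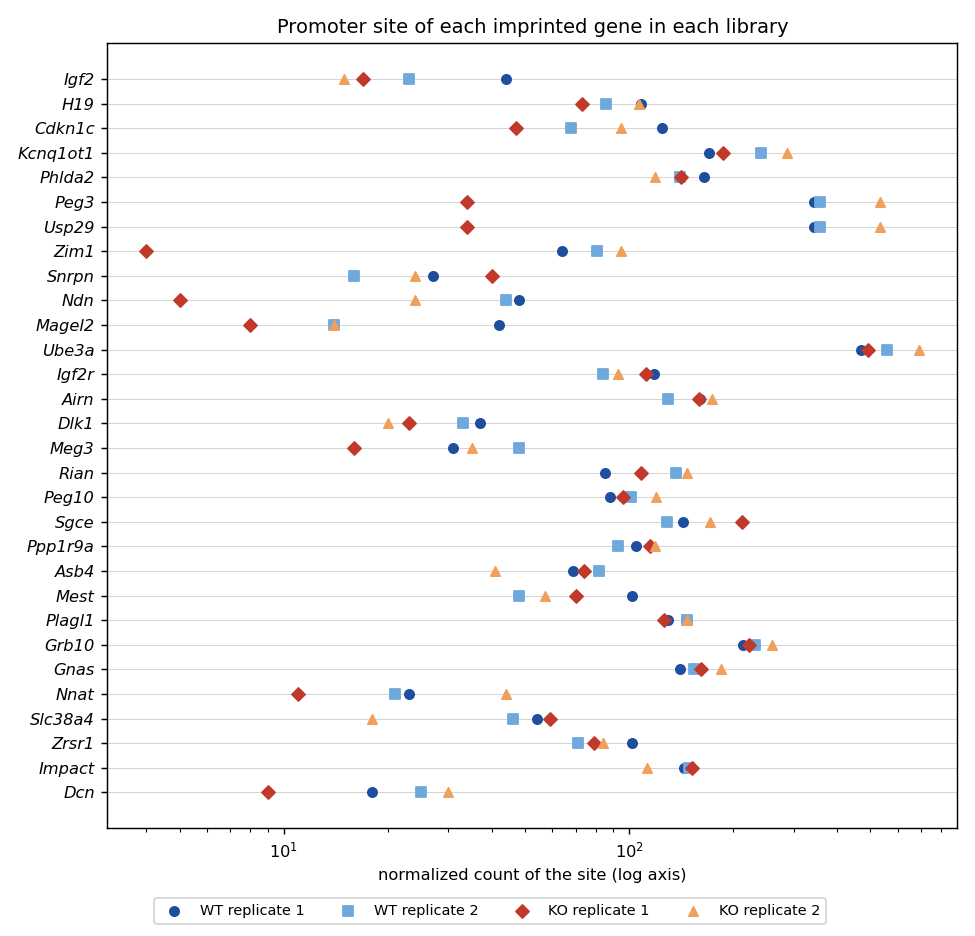
Normalized count (x axis, log scale) of the promoter site of each of 30 imprinted genes in each library, where Peg3 and Usp29 share 1 site. The promoter site is the one with the highest mean within 3 kb of any TSS of the gene. It can lie at an internal start, as at Igf2r, Sgce and Ppp1r9a. KO replicate 1 is far to the left of the other libraries at Peg3, Zim1 and Ndn, and the symbols of both genotypes are mixed at most other genes.

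Other imprinted genes, from a list of 51, gave a like result. Of these, 42 had a site, 0 were called and 1 had an unadjusted p under 0.05. That gene was Htr2a, a serotonin receptor gene, lower in KO with a log2 difference in summed values of -0.86 and an adjusted p that did not pass. Its promoter site held 261 and 196 against 155 and 95, without overlap. The median log2 difference of these 42 genes was -0.0080, beside -0.03 for the 30 genes and 0.04 for all genes.

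Of 8 genes that regulate imprints, 7 had a site and 0 had an unadjusted p under 0.05. The promoter of Zfp57, whose product binds the TGCCGC letters, held 243 and 246 against 210 and 141 (log2 difference -0.50). That of Trim28, its co-repressor, held 302 and 315 against 299 and 489, that of Ctcf 457 and 408 against 435 and 456, and that of Setdb1, a histone H3 lysine methyltransferase, 111 and 129 against 121 and 125. None of these differences passed the test.

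With 2 libraries per genotype there are 3 equal splits, and an exact permutation test of a single value cannot go below a two-sided p of 0.333.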

How the data were processed

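ATAC-Seq libraries of 4 immortalized MEF lines were analysed. Per the study's methods, the authors aligned reads to mm10 with BWA 0.7.12, called peaks with MACS2 2.1.0 and compared genotypes with DESeq2. The values the authors deposited, 1 whole number per merged site and library, are treated as a score, since the exact normalization is not given in the sources used here. The pattern of frequent and absent low numbers is that of counts divided by a library factor and rounded, and whether reads or fragments were counted is not given. Read filtering, multimapping reads and the Tn5 offset are not given in the sources used here. The 4 columns of the authors' own comparison (fold changes and p-values) were not used.

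Sites were assigned to GENCODE M21 genes with Python 3.11.15, without strand. All 82325 sites, and sums over 29025 genes, were tested with limma 3.58.1 in R 4.3.3 (intensity trend, pseudocount 1, no filter, all 4 libraries), and differences on this log2(value + 1) scale understate changes of low sites. Adjusted p-values are Benjamini-Hochberg over all features, and p-values are two-sided. Each line gave 1 library, so p-values measure the spread between lines and between libraries together. In limma, the spread of each feature is also drawn toward that of all features. In simulated data with a log2 change of 2, the calls recovered 200 of 200 changed features among 82325 sites and included 246 unchanged ones. For 29025 genes these were 200 of 200 and 22. The simulation gave all features the same relative spread beyond counting error and placed changes only at mean values of at least 20. It held no stretches that differ between lines of a genotype, as at Peg3. It therefore does not show how many changes of that size would be found in these libraries.

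The named sites were taken from the promoter site of each gene (within 3 kb of a TSS, highest mean), the strongest site and that with the smallest p of each locus. Not all of these are given above. Other sites, Zfp954, Zfp773 and flanking sites were named after their values were seen. Members and lists were chosen with earlier results of these data known.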

Additional observations from a re-analysis of the deposited data

How the results depend on the processing

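No imprinted site or gene was called with a pseudocount of 8, a mean value of at least 20, equal totals, quantile normalization, 3 kb upstream, gene body only, no fold filter, adjusted p-values or, as chosen after seeing the data, without the Peg3 locus. Without an intensity trend 1 site was called, the Usp29 site at chr7:6937163-6937417. Leaving out 1 library gave 0 to 7 called sites and 0 to 4 called genes, the highest counts being without KO replicate 2, where the share called was also the highest over all sites (0.743%) and all genes (1.11%). The median log2 difference then ran from -0.11 to 0.056 over sites and from -0.11 to 0.14 over genes, with the highest values without KO replicate 1. Of the summed locus values under other settings, 7 moved by more than the SD between lines and 41 did not.

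The difference at Nnat was 0.26 with equal totals, 0.27 with quantile normalization and 0.016 on the gene body, and that at Slc38a4 was 0.10 and 0.13 with the 2 scalings. The total values were 8008069 and 8150872 in the WT libraries and 8427919 and 8516263 in the KO libraries. Equal totals therefore lowered all KO values relative to WT, and the median over all sites moved from 0.0062 to -0.061. The cause of the shift with quantile normalization was not tested. Igf2-H19 was at -0.95 on gene bodies, where 1 of its 4 sites, the Igf2 promoter site, was left, and at Nnat 1 of 3 was. No paired analysis was possible because the labels give no replicate numbers, and of the line names only 1 WT and 1 KO share a number, so that fewer than 2 pairs could be formed. Depth limits low sites such as those of Ndn and Magel2, above all in KO replicate 2.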
